A study of Mus musculus with 6 samples.

Results

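The 10 genes described here encode receptors, ligands and targets of the Notch pathway: Notch1, Notch2 and Notch3, the ligands Dll1, Dll3 and Jag1, and the targets and regulators Hes1, Hes6, Hey1 and Nrarp. They were taken by gene name from the tables of RNA levels, and all 10 had a row in both tables, of 14667 gene IDs in at least 1 table. Notch receptors are cell surface proteins that are cut when a ligand on a neighbouring cell binds them. The freed intracellular part enters the nucleus, joins the DNA-binding protein RBPJ and coactivators of the Mastermind family, and turns on repressors of the HES and HEY families. In neural progenitors these repressors hold back proneural genes and so delay neuronal differentiation.

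RNA was measured by poly(A) RNA-seq in NE-4C, a line of neural stem cells from embryonic mouse brain that lacks p53. All lines were labelled as knockouts of H3f3a, which encodes histone H3.3, with stable expression of an HA-tagged H3.3. Cbfa2t2_KO carried tagged wild-type H3.3 after a further knockout of Cbfa2t2, a corepressor of the ETO family. H3.3K27M carried tagged H3.3 with methionine in place of lysine 27, in cells whose Cbfa2t2 was not edited. H3.3WT, with the wild-type tagged histone and Cbfa2t2 not edited, served both other lines as the control. Each line gave 2 libraries. The sources used here do not give whether a line was a single clone, so a difference between genotypes and a difference between the particular lines cannot be told apart. Separate cultures are not stated for the libraries of a line, so the p-values reflect only how far these samples spread, and that spread may be technical.

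Values are FPKM, a level per transcript length and library, and each edited line shared a table with H3.3WT. For the 14082 genes in both tables the H3.3WT values did not differ between them. Read depth is unknown and no counting interval is given. Summed FPKM per library ran from 363586 to 419389. In the table of Cbfa2t2_KO and H3.3WT, columns were matched to lines by the library identifiers in the sample descriptions. In the table of H3.3K27M and H3.3WT they were matched by name. There the H3.3K27M name was no more than the letter M, in a table titled for K27M. Cbfa2t2 itself stood at 1.02 and 0.769 FPKM in the libraries labelled Cbfa2t2_KO, against 1.38 and 1.35 FPKM in H3.3WT, a log2 change of -0.32 that did not pass (limma, adjusted p = 0.153), so the level does not show the knockout. H3f3a, labelled as knocked out in all 3 lines, stood at 82.1 and 66.3 FPKM in Cbfa2t2_KO, 77.3 and 66.8 FPKM in H3.3K27M and 131 and 181 FPKM in H3.3WT, which does not show that knockout either. Whether RNA of the introduced H3.3 is counted in its row was not tested. Of the neural stem cell markers, Sox2 stood at 12.3 and 9.55 FPKM in Cbfa2t2_KO, 28.1 and 32.2 in H3.3K27M and 30.9 and 34.4 in H3.3WT, and Sox3 and Nes were above 14 FPKM in every library. Vim stood at 27.3 and 26.5 FPKM in Cbfa2t2_KO, 34.6 and 41.8 in H3.3K27M and 10.3 and 12.1 in H3.3WT. Prom1 was also higher in both edited lines than in H3.3WT. Pax6 and Hes5 were below 1 FPKM throughout, Sox1 and Fabp7 had no row, and the epithelial marker Epcam stood between 57.1 and 163 FPKM. The neural stem cell label therefore had part of its markers. In bulk RNA, fewer cells that express a gene and less RNA per cell cannot be told apart.

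Promoter sequence is shown for Jag1, Hes6 and Nrarp, the genes with an entry that passed the test in Cbfa2t2_KO as described below. RefSeq promoter windows on GRCm38.p6, from 250 bases before to 50 after a start site, were held for 8 of the 10 genes, in 10 windows. Hes1 and Hey1 had no window. The bases printed are those before the start site and outside the annotated gene, 126 for Jag1 and 250 for Hes6 and Nrarp, read 5′ to 3′ along the gene's own strand. They lie at chr2:137116645-137116770 on the reverse strand for Jag1, at chr1:91414039-91414288 on the reverse strand for Hes6 and at chr2:25180508-25180757 on the forward strand for Nrarp. Capitals mark the E box CACGTG and the N box CACNAG, the second of which is bound by HES repressors, with N for any base and either strand counted.
Jag1: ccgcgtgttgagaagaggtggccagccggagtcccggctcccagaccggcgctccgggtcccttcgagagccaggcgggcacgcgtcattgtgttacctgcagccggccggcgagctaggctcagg
Hes6: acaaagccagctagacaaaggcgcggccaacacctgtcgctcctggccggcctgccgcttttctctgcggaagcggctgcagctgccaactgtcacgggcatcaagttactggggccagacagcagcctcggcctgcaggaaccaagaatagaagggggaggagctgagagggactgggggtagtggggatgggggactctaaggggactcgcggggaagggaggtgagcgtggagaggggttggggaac
Nrarp: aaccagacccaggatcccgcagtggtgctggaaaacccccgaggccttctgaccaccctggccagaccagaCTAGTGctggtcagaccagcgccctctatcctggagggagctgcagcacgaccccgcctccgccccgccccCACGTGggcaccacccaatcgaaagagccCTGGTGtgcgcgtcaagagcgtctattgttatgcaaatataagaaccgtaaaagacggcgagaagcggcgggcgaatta

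The Nrarp window held 1 E box and 2 N boxes, whereas the Jag1 window and the Hes6 window printed held neither. Over all genes with a window, an N box was found in 6 of the 10 windows, beside 42.5% of 32851 RefSeq promoters of that length. An E box was found in 1 window, that of Nrarp, beside 7.15% of all promoters. The RBPJ core TGGGAA, searched on both strands, was in 0 of the 10 windows, beside 25.6% of all promoters, and its longer form GTGGGAA, which contains the core, was in 0 windows beside 6.38%. The promoters of the targets Hes1 and Hey1 were not searched, so these counts do not cover them. CpG dinucleotides numbered 21 in the Nrarp window, 22 in the Jag1 window and 14 in the Hes6 window printed, against a median of 7 over all promoters. In the same order, 76.9%, 78.5% and 65.4% of all promoters had at most as many. These letter matches describe the windows and do not show binding.

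The first comparison asked how the genes differed after Cbfa2t2 knockout. In Cbfa2t2_KO all 4 targets and regulators and the ligand Jag1 fell against H3.3WT, to between 30.1% and 57.3% of the H3.3WT mean, while none of the 3 receptors and neither Delta-like ligand passed the test. By limma on log2(FPKM + 1) with adjusted p of at most 0.05, 5 of 10 genes were lower and 0 were higher, the same numbers as at an unadjusted p under 0.05. Over all 11626 genes tested, 34.6% were called in this comparison, 21.5% lower and 13.1% higher. The median log2 change was -0.46 over the 10 genes and -0.11 over all genes tested. Median-of-ratios scaling took the median of all genes to -0.003 and the share of calls that were higher to 50.6%, compared with 37.9% on the values as deposited. The 5 lower genes also passed under that scaling, with log2 changes of -1.20 (Nrarp), -1.19 (Hey1), -1.08 (Jag1), -0.95 (Hes1) and -0.63 (Hes6).

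In H3.3K27M, 5 of the 10 genes were lower than in H3.3WT and 0 were higher, again the same numbers at an unadjusted p under 0.05. They were the targets Hey1 and Nrarp, the ligands Jag1 and Dll3, and the receptor Notch1. Among all 11623 genes tested here, 26.2% were called, 17.8% lower and 8.42% higher. The median log2 change was -0.60 over the 10 genes and -0.12 over all genes tested. Under median-of-ratios scaling the median of all genes was 0.005, the share of calls that were higher was 49.3% instead of 32.1%, and 4 of the 10 genes were called lower, with Notch1 no longer among them (log2 change -0.75, adjusted p = 0.0555 by limma). Fewer of the 10 genes were called lower without H3.3K27M replicate 2 and without either H3.3WT library, fits in which calls over all genes also fell. Both comparisons use the same 2 H3.3WT libraries, so a high or low H3.3WT library moves both.

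**Figure D1:**
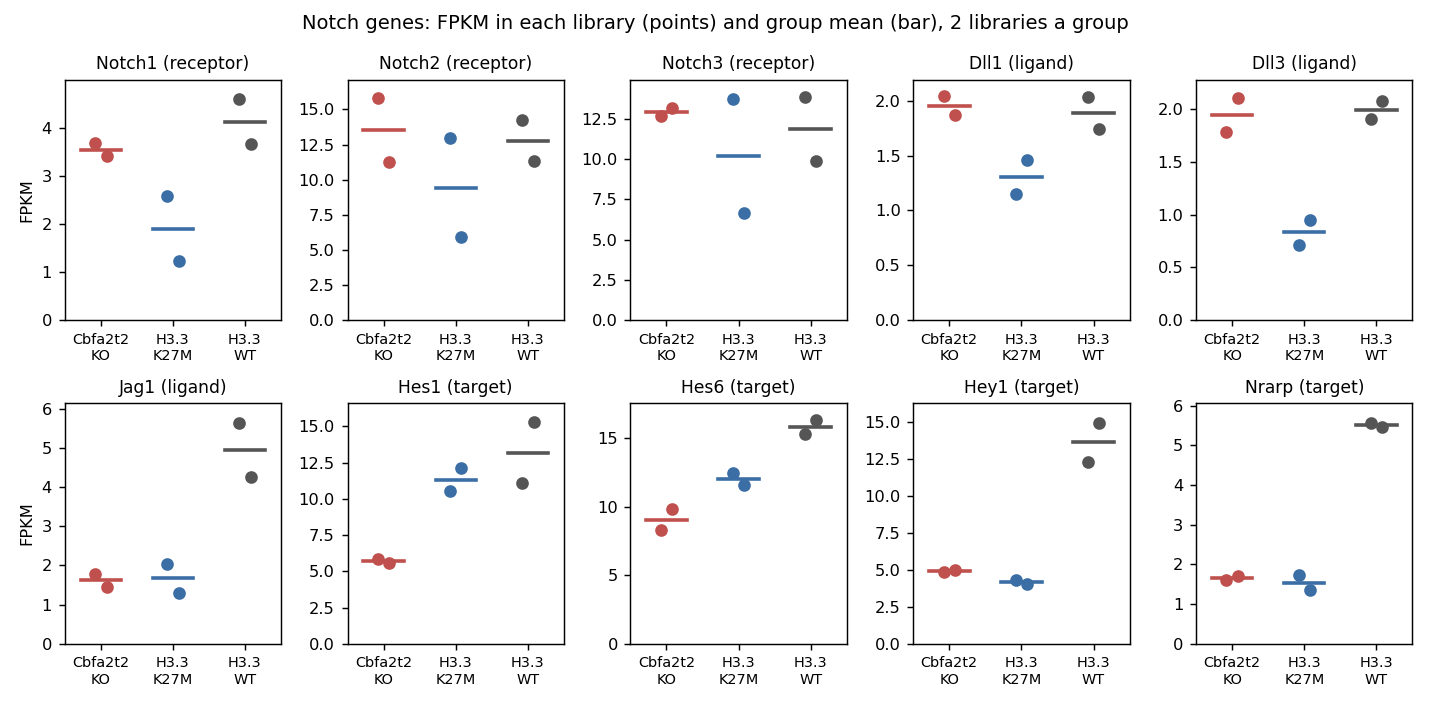
FPKM of each of the 10 Notch genes, with 1 panel a gene, its own linear axis from 0, 1 point for each library and a bar at the mean of the 2 libraries of a line. For Jag1, Hey1 and Nrarp all 4 libraries of Cbfa2t2_KO and H3.3K27M lie below both H3.3WT libraries, whereas for Hes1 only Cbfa2t2_KO does.

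For the 3 receptors Cbfa2t2_KO overlapped H3.3WT, and Notch1 was lower in H3.3K27M. Notch1 (ENSMUSG00000026923) lies on GRCm38 chromosome 2, 26457903 to 26516663, reverse strand, with up to 34 exons in a transcript. It stood at 3.67 and 3.42 FPKM in Cbfa2t2_KO, at 2.58 and 1.23 FPKM in H3.3K27M and at 4.59 and 3.65 FPKM in H3.3WT. Both H3.3K27M libraries were below all 4 others, and 1 Cbfa2t2_KO library fell inside the H3.3WT range. Its mean was 3.54 ± 0.180 FPKM in Cbfa2t2_KO, 1.90 ± 0.958 in H3.3K27M and 4.12 ± 0.665 in H3.3WT (SD, n = 2 each). In Cbfa2t2_KO the log2 change was -0.17 ± 0.18 (SE; limma, adjusted p = 0.503). In H3.3K27M it was -0.85 ± 0.25 and passed (limma, adjusted p = 0.0391). That call was lost without H3.3K27M replicate 2, where the log2 change was -0.51 (limma, adjusted p = 0.168), and without either H3.3WT library (adjusted p = 0.183 and 0.0951).

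Notch2 (ENSMUSG00000027878; chromosome 3, 98013527 to 98150361, forward strand) had 15.8 and 11.3 FPKM in Cbfa2t2_KO, 12.9 and 5.95 FPKM in H3.3K27M and 14.3 and 11.3 FPKM in H3.3WT. The lines overlapped, and the second H3.3K27M library was the lowest of the 6. Its log2 change was 0.07 ± 0.20 in Cbfa2t2_KO (limma, adjusted p = 0.811). In H3.3K27M it was -0.48 ± 0.31 (adjusted p = 0.272), and the 95% intervals were -0.39 to 0.53 and -1.18 to 0.22. Without H3.3K27M replicate 1 the H3.3K27M change was -0.98 and passed (limma, adjusted p = 0.0271), and without replicate 2 it was 0.02.

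Notch3 (ENSMUSG00000038146; chromosome 17, 32120820 to 32166852, reverse strand) had 12.7 and 13.1 FPKM in Cbfa2t2_KO, 13.8 and 6.63 FPKM in H3.3K27M and 13.9 and 9.87 FPKM in H3.3WT. Here too the lines overlapped and the second H3.3K27M library was lowest. The log2 change was 0.13 ± 0.19 in Cbfa2t2_KO (limma, adjusted p = 0.610), and for H3.3K27M -0.26 ± 0.31 (adjusted p = 0.556). FPKM is per length, so receptors can be set beside each other: Notch2 and Notch3 each made up between 39.4% and 49.1% of the summed FPKM of the 3 receptors in every library. Notch1 made up 11.4% and 12.3% in Cbfa2t2_KO, 8.81% and 8.88% in H3.3K27M and 14.0% and 14.7% in H3.3WT. The Notch1 share was thus lower in both H3.3K27M libraries than in any other, although their summed receptor levels, 29.3 and 13.8 FPKM, differed more than those of the other lines.

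The 3 receptor transcripts are long, at 9488, 10500 and 8016 bases, and the H3.3K27M libraries differed from each other with transcript length. Replicate 2 minus replicate 1 of H3.3K27M had a median of 0.20 on the log2(FPKM + 1) scale over 2224 genes under 2000 bases and -0.54 over 483 genes of at least 8000 bases. In Cbfa2t2_KO the medians of those classes were 0.12 and -0.32, and in H3.3WT they were 0.05 and -0.02. The receptors differed between the H3.3K27M libraries by -0.69 (Notch1), -1.0 (Notch2) and -0.95 (Notch3). In the same order they differed by -0.27, -0.31 and -0.45 between the H3.3WT libraries and by -0.08, -0.45 and 0.05 between the Cbfa2t2_KO libraries. After each library's trend on transcript length, GC content and exon number was removed, an alternative chosen after seeing the data, the H3.3K27M change was -0.53 for Notch1, which passed (limma, adjusted p = 0.0317), -0.23 for Notch2 and 0.09 for Notch3. The part that this trend has in the receptor values was not tested further.

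**Figure D2:**
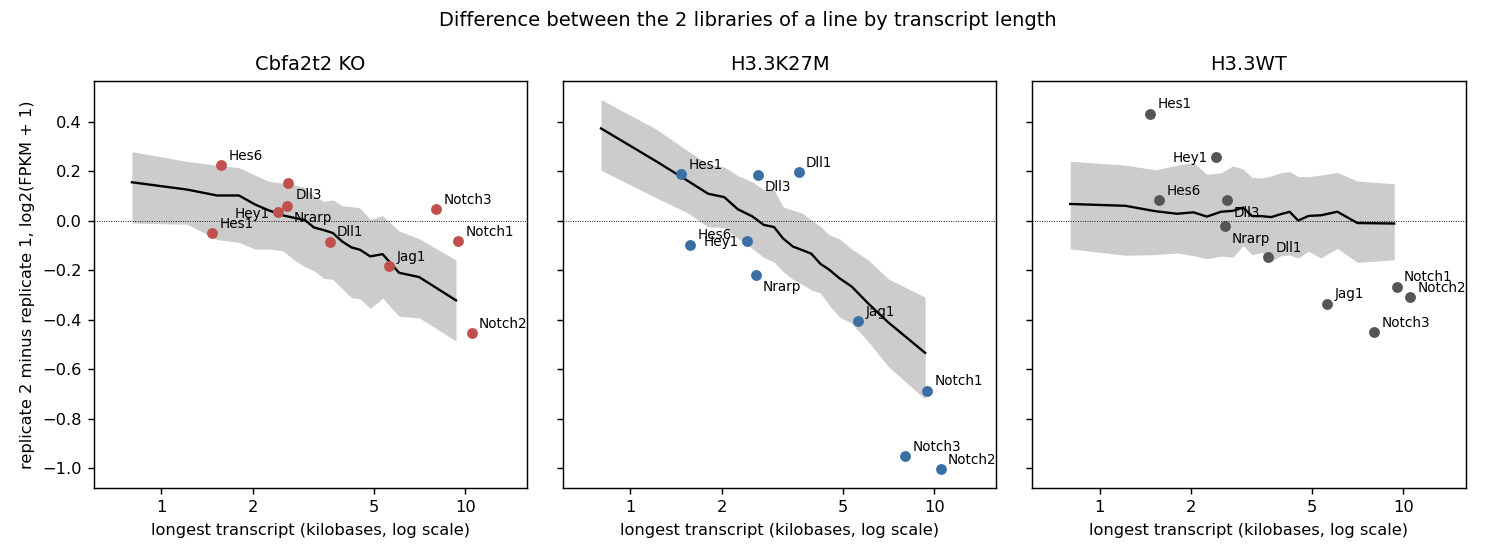
Difference between the 2 libraries of each line, as replicate 2 minus replicate 1 in log2(FPKM + 1), against the longest transcript in kilobases on a log axis. The line is the median and the band the middle 50% of genes in 20 bins of length, and points are the 10 Notch genes. In H3.3K27M the median runs from 0.37 in the shortest bin to -0.53 in the longest, with Notch2 at -1.0 and Notch3 at -0.95. In H3.3WT the median stays between -0.01 and 0.07, with Notch2 at -0.31 and Notch3 at -0.45.

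Among the ligands, Jag1 was lower in both edited lines than in H3.3WT. Jag1 (ENSMUSG00000027276; chromosome 2, 137081456 to 137116644, reverse strand, 26 exons), a ligand of the Jagged family, had 1.79 and 1.45 FPKM in Cbfa2t2_KO, 2.04 and 1.29 FPKM in H3.3K27M and 5.62 and 4.25 FPKM in H3.3WT. All 4 libraries of the edited lines were below both H3.3WT libraries, and the edited lines overlapped each other. The mean in Cbfa2t2_KO was 32.8% and in H3.3K27M 33.8% of the H3.3WT mean. The log2 change was -1.17 ± 0.19 in Cbfa2t2_KO (limma, adjusted p = 0.0035). It was -1.16 ± 0.22 in H3.3K27M (limma, adjusted p = 0.00792), a call lost without H3.3WT replicate 1 (log2 change -0.99, adjusted p = 0.0589).

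Dll3 (ENSMUSG00000003436; chromosome 7, 28293553 to 28302238, reverse strand), a Delta-like protein known in mouse to inhibit signalling in the cell that makes it, had 1.79 and 2.10 FPKM in Cbfa2t2_KO, 0.717 and 0.952 FPKM in H3.3K27M and 1.91 and 2.08 FPKM in H3.3WT. Both H3.3K27M libraries were below the other 4, and Cbfa2t2_KO overlapped H3.3WT. Its log2 change was -0.03 ± 0.17 in Cbfa2t2_KO (limma, adjusted p = 0.917), and in H3.3K27M it was -0.71 ± 0.18 (adjusted p = 0.0206). With the trend on length, GC content and exon number removed, the H3.3K27M change was -0.43 and did not pass (limma, adjusted p = 0.0735), and it also missed the threshold without H3.3K27M replicate 1 and without either H3.3WT library (adjusted p = 0.0626, 0.0802 and 0.104).

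Dll1 (ENSMUSG00000014773; chromosome 17, 15367354 to 15376872, reverse strand), an activating Delta-like ligand, had 2.04 and 1.87 FPKM in Cbfa2t2_KO, 1.15 and 1.46 FPKM in H3.3K27M and 2.03 and 1.74 FPKM in H3.3WT. The H3.3K27M libraries did not overlap the others, but the log2 change of -0.33 ± 0.18 did not pass (limma, adjusted p = 0.208). In Cbfa2t2_KO it was 0.04 ± 0.17 (adjusted p = 0.888). Summed over the 3 ligands, the level was 5.62 and 5.43 FPKM in Cbfa2t2_KO, 3.91 and 3.71 FPKM in H3.3K27M and 9.57 and 8.08 FPKM in H3.3WT. Jag1 made up 31.8% and 26.8% of that sum in Cbfa2t2_KO, 52.2% and 34.9% in H3.3K27M and 58.8% and 52.6% in H3.3WT. Its share was clearly below the H3.3WT range in both Cbfa2t2_KO libraries. In H3.3K27M 1 library, at 34.9%, was well below that range, and the other, at 52.2%, was only just below the lower H3.3WT value of 52.6%. The sum and these shares leave out Jag2, a ligand outside the 10 genes that was above Jag1 in every library. Jag2 stood at 8.2 and 9.1 FPKM in Cbfa2t2_KO, 6.1 and 5.0 in H3.3K27M and 8.4 and 7.1 in H3.3WT. Its log2 changes, 0.14 in Cbfa2t2_KO and -0.42 in H3.3K27M, did not pass (limma, adjusted p = 0.543 and 0.138).

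**Figure D3:**
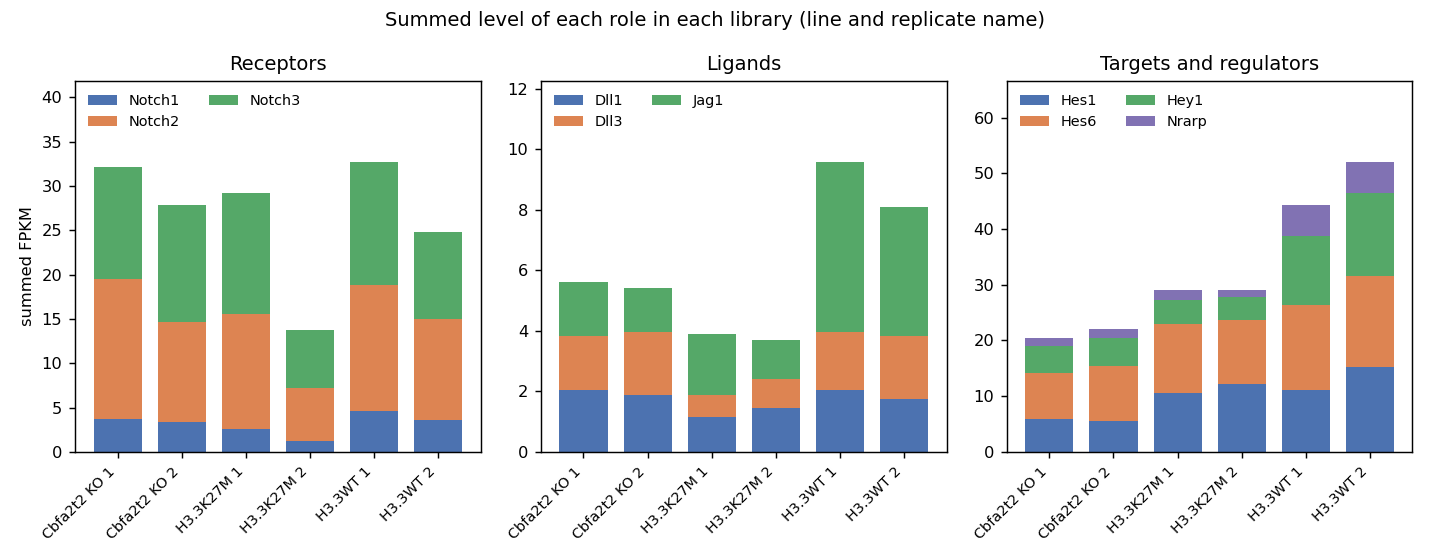
Summed FPKM of the 3 receptors, the 3 ligands and the 4 targets and regulators in each of the 6 libraries, as stacked bars from 0 with 1 colour a gene. The ligand and target sums are highest in the 2 H3.3WT libraries, and the receptor sum is lowest, at 13.8 FPKM, in the second H3.3K27M library.

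Of the targets, Hey1 and Nrarp were lower in both edited lines, whereas Hes1 was lower in Cbfa2t2_KO and did not pass the test in H3.3K27M. Nrarp (ENSMUSG00000078202; chromosome 2, 25180758 to 25183339, forward strand, 1 exon), whose ankyrin repeat protein binds the Notch intracellular part and limits the signal, had 1.60 and 1.71 FPKM in Cbfa2t2_KO, 1.73 and 1.34 FPKM in H3.3K27M and 5.56 and 5.46 FPKM in H3.3WT. The edited lines overlapped and both lay well below H3.3WT, Cbfa2t2_KO at 30.1% and H3.3K27M at 27.9% of its mean. The log2 change was -1.29 ± 0.17 in Cbfa2t2_KO (limma, adjusted p = 0.00159), and in H3.3K27M it was -1.36 ± 0.19 (adjusted p = 0.00268).

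Hey1 (ENSMUSG00000040289; chromosome 3, 8663359 to 8667256, reverse strand), a transcriptional repressor of the HEY family, had 4.83 and 4.97 FPKM in Cbfa2t2_KO, 4.34 and 4.05 FPKM in H3.3K27M and 12.3 and 14.9 FPKM in H3.3WT. All 4 libraries of the edited lines were below 5 FPKM and both H3.3WT libraries above 12 FPKM. The log2 change was -1.30 ± 0.17 in Cbfa2t2_KO (limma, adjusted p = 0.00161), and in H3.3K27M it was -1.49 ± 0.19 (adjusted p = 0.00201). Hey1 and Nrarp passed in both comparisons under every alternative that gave them a value, with adjusted p of at most 0.0239. H3f3a was lower in both edited lines as well, at 47.6% of the H3.3WT mean in Cbfa2t2_KO and 46.2% of it in H3.3K27M. The log2 change of H3f3a was -1.05 ± 0.19 in Cbfa2t2_KO (limma, adjusted p = 0.00501). For H3.3K27M it was -1.09 ± 0.20 (limma, adjusted p = 0.00708), and its part in the lower Jag1, Hey1 and Nrarp levels was not tested.

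Hes1 (ENSMUSG00000022528; chromosome 16, 30064384 to 30067796, forward strand, 4 exons), the repressor that keeps neural progenitors undifferentiated, had 5.82 and 5.59 FPKM in Cbfa2t2_KO, 10.5 and 12.1 FPKM in H3.3K27M and 11.1 and 15.3 FPKM in H3.3WT. Both Cbfa2t2_KO libraries were below the other 4, and H3.3K27M overlapped H3.3WT. The mean was 5.71 ± 0.165 FPKM in Cbfa2t2_KO, 11.3 ± 1.14 in H3.3K27M and 13.2 ± 2.99 in H3.3WT (SD, n = 2 each). Its log2 change was -1.07 ± 0.19 in Cbfa2t2_KO (limma, adjusted p = 0.0050). In H3.3K27M it was -0.19 ± 0.20 with a 95% interval of -0.66 to 0.27 (limma, adjusted p = 0.510), an interval that leaves a moderate change in either direction possible.

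Hes6 (ENSMUSG00000067071; chromosome 1, 91411483 to 91414038, reverse strand), a HES family protein known in mouse to oppose Hes1 and favour neuronal differentiation, had 8.27 and 9.83 FPKM in Cbfa2t2_KO, 12.4 and 11.6 FPKM in H3.3K27M and 15.3 and 16.3 FPKM in H3.3WT. The 3 lines did not overlap, with Cbfa2t2_KO lowest and H3.3WT highest. The log2 change was -0.75 ± 0.16 in Cbfa2t2_KO (limma, adjusted p = 0.0104), a call lost without Cbfa2t2_KO replicate 1 (log2 change -0.63, adjusted p = 0.0556). In H3.3K27M it was -0.37 ± 0.17 and did not pass (limma, adjusted p = 0.136). Summed over the 4 targets and regulators, the level was 20.5 and 22.1 FPKM in Cbfa2t2_KO, 29.0 and 29.1 FPKM in H3.3K27M and 44.3 and 52.0 FPKM in H3.3WT.

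**Figure D4:**
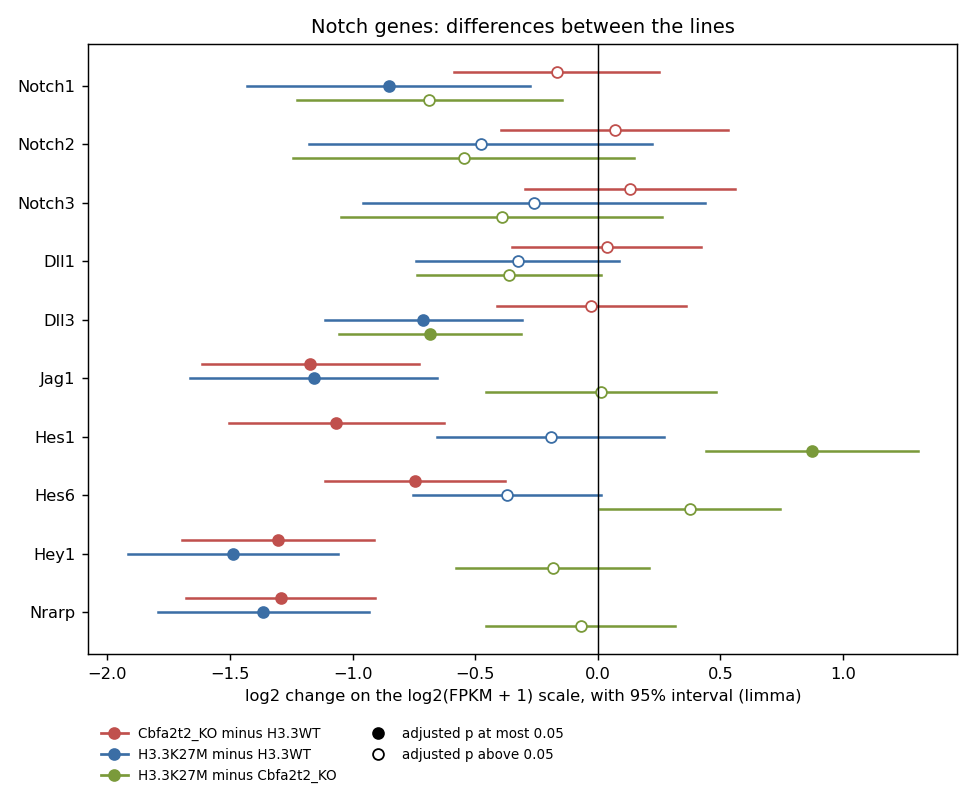
Log2 change of each of the 10 Notch genes on the log2(FPKM + 1) scale, with its 95% interval from limma, for Cbfa2t2_KO minus H3.3WT, H3.3K27M minus H3.3WT and H3.3K27M minus Cbfa2t2_KO. Filled points have an adjusted p of at most 0.05: 5 genes, all lower, in each comparison with H3.3WT, and Hes1 (0.87) and Dll3 (-0.68) between the edited lines.

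The edited lines were then compared with each other in a fit of all 6 libraries. Of the 10 genes, Hes1 was higher and Dll3 was lower in H3.3K27M than in Cbfa2t2_KO, and the other 8 did not pass. At an unadjusted p under 0.05 the numbers were 2 higher and 2 lower. The median log2 change was -0.27 over the 10 genes and -0.02 over all genes tested. Of all 11601 genes tested 7.8% were called in this comparison, 3.12% higher and 4.68% lower. The Hes1 mean in H3.3K27M was 198% of that in Cbfa2t2_KO, a log2 change of 0.87 ± 0.19 (limma, adjusted p = 0.0326). That call was lost without either Cbfa2t2_KO library (adjusted p = 0.0878 and 0.197) and without H3.3K27M replicate 2 (adjusted p = 0.116), while the log2 change stayed between 0.78 and 0.97 over the libraries left out.

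For Dll3 the log2 change between the edited lines was -0.68 ± 0.16 (limma, adjusted p = 0.0411), and the mean in H3.3K27M was 42.9% of that in Cbfa2t2_KO. The Dll3 call was lost on leaving out any of the 6 libraries, with adjusted p from 0.0573 to 0.251. For Jag1, Hey1 and Nrarp the changes between the edited lines were 0.01, -0.18 and -0.07, with 95% intervals of -0.45 to 0.48, -0.58 to 0.21 and -0.46 to 0.32. Those intervals bound the difference but do not show that the lines are alike. For Hes6 the change was 0.38 ± 0.16 (limma, adjusted p = 0.166), and with the trend on length, GC content and exon number removed it was 0.60 and passed (adjusted p = 0.0369). Notch1 was -0.69 ± 0.24 between the edited lines (limma, adjusted p = 0.102).

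Other genes of the pathway were taken from a general list of 64, of which 51 had a row. The receptor Notch4 and the ligand Dll4 were among those with no row. In Cbfa2t2_KO, 40 of them were tested, 5 were lower, 2 were higher and the median log2 change was -0.07. The 12.5% that were lower compare with 21.5% of all genes, and the 5% that were higher with 13.1%. Under median-of-ratios scaling and under quantile normalization 5 of the 40 were lower and 5 higher. Of all 11626 genes, 2044 were lower and 2091 higher under the first, and 2006 lower and 2025 higher under the second. Of the 5, the 3 with the largest falls were Tle3, a Groucho-type corepressor of HES proteins, at -1.37 ± 0.15 (limma, adjusted p = 0.000989), Dtx4, a Deltex ubiquitin ligase, at -1.25 ± 0.16, and Ep300, a histone acetyltransferase that serves as a Notch coactivator, at -1.06 ± 0.21. The others were Snw1, a nuclear cofactor (-1.0), and Maml1, a Mastermind coactivator (-0.69). Tle3 stood at 9.64 and 10.4 FPKM in Cbfa2t2_KO against 25.7 and 29.4 FPKM in H3.3WT, with no overlap. The higher genes were Rfng, a Fringe glycosyltransferase that modifies Notch, at 0.66 ± 0.19 (limma, adjusted p = 0.0301), and Numbl, a relative of the Notch inhibitor Numb, at 0.56 ± 0.18 (adjusted p = 0.0406). Without either Cbfa2t2_KO library the Rfng and Numbl calls were lost, and without Cbfa2t2_KO replicate 2 some of the lower calls were lost. Calls over all genes also fell in those fits.

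In H3.3K27M, 9 of the 40 other genes tested were lower, 1 was higher and the median log2 change was -0.29. Thus 22.5% were lower beside 17.8% of all genes, and 2.5% higher beside 8.42%. Under quantile normalization 5 of the 40 were lower, beside 1429 of all 11623 genes. Without H3.3K27M replicate 2 or either H3.3WT library fewer of them were lower, and calls over all genes also fell in those fits. Tle3 (-1.33 ± 0.19), Maml1 (-1.32 ± 0.24) and Dtx4 (-1.21 ± 0.20) had the largest falls (limma, adjusted p = 0.00296, 0.00686 and 0.00505). Maml1 stood at 15.8 and 9.04 FPKM in H3.3K27M against 30.4 and 32.7 FPKM in H3.3WT. Lfng, a Fringe glycosyltransferase, was lower in H3.3K27M at -0.76 ± 0.19 (limma, adjusted p = 0.0208) and had -0.04 ± 0.18 in Cbfa2t2_KO (adjusted p = 0.899). The single higher gene was Adam10, the protease that sheds the outer part of the receptor, at 0.62 ± 0.19 (limma, adjusted p = 0.0414), with 4.16 and 3.62 FPKM in H3.3K27M against 2.02 and 2.33 FPKM in H3.3WT. Its call was lost on leaving out any of the 4 libraries.

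Rbpj, the DNA-binding partner of all Notch receptors, did not pass in either line, with log2 changes of -0.29 ± 0.18 in Cbfa2t2_KO (limma, adjusted p = 0.245) and, for H3.3K27M, -0.31 ± 0.22 (adjusted p = 0.330). It was low everywhere, at 1.79 and 1.20 FPKM in Cbfa2t2_KO, 2.0 and 0.989 FPKM in H3.3K27M and 2.04 and 2.02 FPKM in H3.3WT. Hes5, another classical Notch target in neural progenitors, was too low to be tested, at 0.0292 and 0.294 FPKM in Cbfa2t2_KO, 0.116 and 0.373 FPKM in H3.3K27M and 0.252 and 0.678 FPKM in H3.3WT. Between the edited lines 4.68% of all genes tested were lower in H3.3K27M and 3.12% higher. Of the 40 other pathway genes tested, Adam10 was higher in H3.3K27M than in Cbfa2t2_KO (0.79 ± 0.18, limma, adjusted p = 0.0375) and 4 (10%) were lower. Those were Mfap2, a microfibril protein known to bind Jagged ligands (-1.05), Furin, the protease that makes the first cut of the receptor (-0.89), Rfng (-0.84) and Lfng (-0.73). Without either Cbfa2t2_KO library, or without H3.3K27M replicate 2, these calls were lost, as were most calls over all genes.

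**Figure D5:**
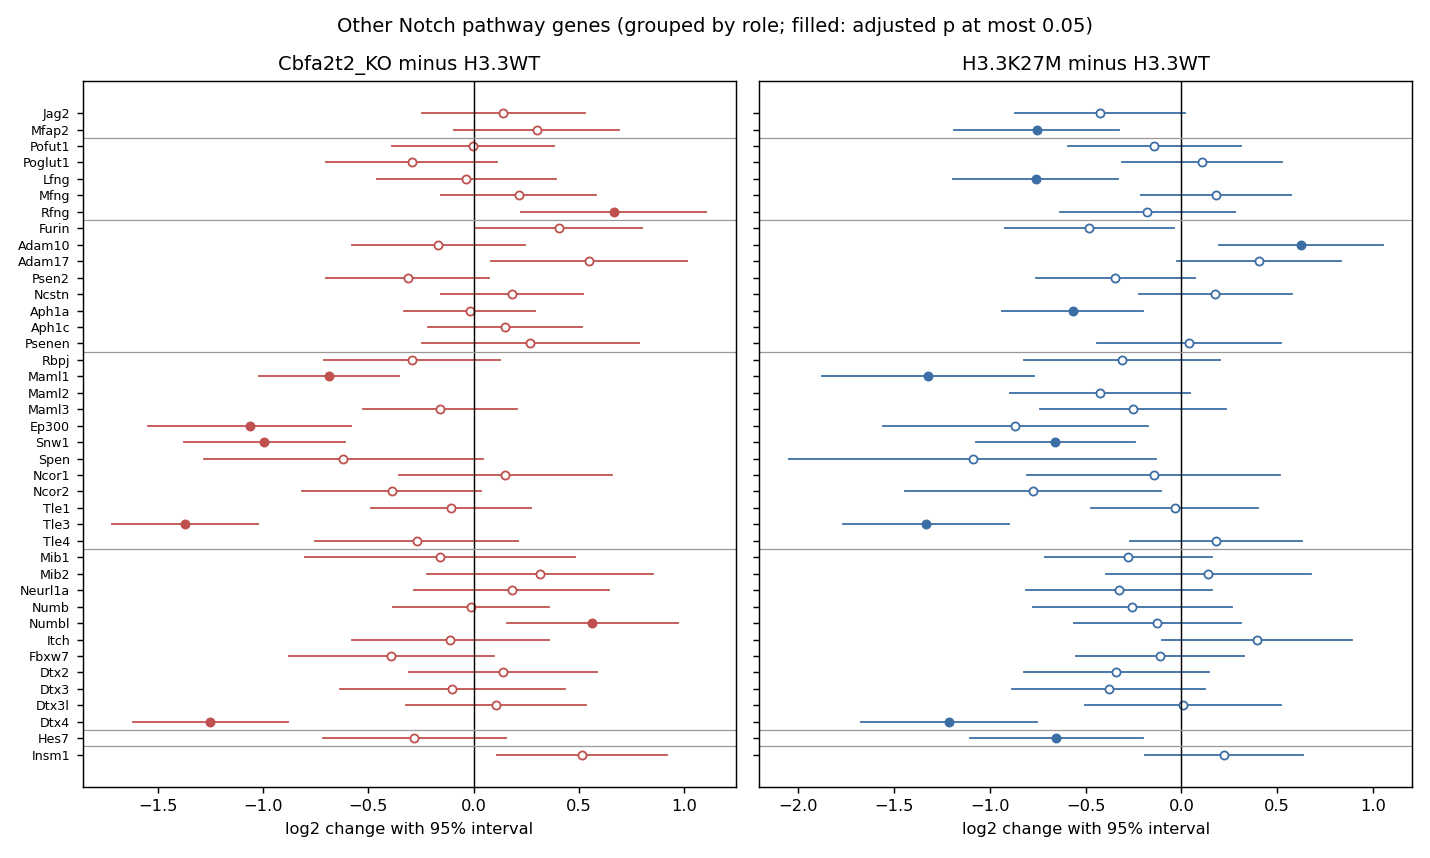
Log2 change on the log2(FPKM + 1) scale with its 95% interval from limma for the other Notch pathway genes tested and reported here, in Cbfa2t2_KO minus H3.3WT (left) and H3.3K27M minus H3.3WT (right), with lines between the roles from ligands at the top to proneural factors at the bottom. Filled points passed at an adjusted p of at most 0.05, with Tle3 and Dtx4 below -1.2 in both panels.

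Genes whose levels followed Hes1 or Notch1 most closely over the 6 libraries were found by the Euclidean distance between centred log2 profiles, among 6338 genes. For Hes1 the nearest were Orc6 (distance 0.153), Cdv3 (0.226) and Yaf2 (0.261). Orc6, a subunit of the origin recognition complex, had 12.7 and 11.6 FPKM in Cbfa2t2_KO, 20.1 and 23.2 FPKM in H3.3K27M and 20.2 and 28.1 FPKM in H3.3WT. For Notch1 they were Gemin5 (0.0850), Sap130 (0.121) and Bcorl1 (0.142), and Gemin5, which takes part in snRNP assembly, had 35.2 and 34.9 FPKM in Cbfa2t2_KO, 27.8 and 17.3 FPKM in H3.3K27M and 44.5 and 38.0 FPKM in H3.3WT. With 6 libraries in 3 lines, these profiles share the differences between lines and libraries.

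Other groups of genes moved with the Notch targets. Immediate early genes, which respond within minutes to growth factors and to handling of cells, had a summed level of 125 and 152 FPKM in Cbfa2t2_KO, 143 and 158 FPKM in H3.3K27M and 488 and 688 FPKM in H3.3WT, over 11 of 12 listed genes with a row. In H3.3WT most of that sum came from Egr1 and Ier2. Of the 9 tested, 6 were lower and 1 higher in each edited line, and Egr1 stood at 7.55 and 7.59 FPKM in Cbfa2t2_KO, 5.97 and 6.43 FPKM in H3.3K27M and 173 and 274 FPKM in H3.3WT. The higher gene was Ier3, at 46.4 and 63.1 FPKM in Cbfa2t2_KO, 47.9 and 55.1 in H3.3K27M and 10.0 and 7.99 in H3.3WT. Jun and Dusp1 did not pass. Over all genes tested 21.5% were lower and 13.1% higher in Cbfa2t2_KO, and 17.8% lower and 8.42% higher in H3.3K27M. Epithelial markers ran the other way, with summed levels of 274 and 264 FPKM in Cbfa2t2_KO, 229 and 225 FPKM in H3.3K27M and 156 and 128 FPKM in H3.3WT over 5 of 6 genes. Of those 5, 4 were higher in Cbfa2t2_KO and 3 in H3.3K27M. Neural stem cell markers summed to 132 and 127 FPKM in Cbfa2t2_KO, 146 and 160 FPKM in H3.3K27M and 191 and 196 FPKM in H3.3WT over 8 of 10 genes, and of the 6 tested 2 were higher and 3 lower in each edited line. The higher genes were Vim and Prom1 in both lines. The lower genes were Nes and Sox3 in both lines, with Sox2 in Cbfa2t2_KO and Msi1 in H3.3K27M. Neuron markers summed to 134 and 150 FPKM in Cbfa2t2_KO, 76.7 and 81.4 FPKM in H3.3K27M and 78.7 and 77.0 FPKM in H3.3WT over 4 of 8 genes, mostly from Tubb3. All 4 were tested. In Cbfa2t2_KO Tubb3 was higher and the other 3 did not pass, with Rbfox3 and Elavl3 at log2 changes of -0.34 and -0.33 (limma, adjusted p = 0.130 and 0.163). In H3.3K27M 0 were higher (also 0 at an unadjusted p under 0.05) and Rbfox3 and Elavl3 were lower (-0.74 and -0.56; limma, adjusted p = 0.0153 and 0.0473). Endothelial and oligodendrocyte marker sums stayed below 4 FPKM in every library. Astrocyte markers summed to less than 14 FPKM, and of the 2 tested Slc1a3 was lower and Aldh1l1 higher in each edited line, with log2 changes of -1.26 and 1.09 in Cbfa2t2_KO and -0.63 and 1.04 in H3.3K27M. Mesenchymal markers summed to less than 32 FPKM. Of the 5 tested in Cbfa2t2_KO, Col1a1 and Col3a1 were higher and Twist1, Pdgfrb and Acta2 lower, and of the 4 tested in H3.3K27M, Col3a1 was higher and Pdgfrb lower. The part of these groups in the lower Jag1, Hes1, Hes6, Hey1 and Nrarp levels was not tested.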

How the data were processed

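RNA-seq values were the authors' FPKM, deposited in 2 tables, and no counts are in them. Per the submitters' processing notes Trim Galore, HISAT2, StringTie and DESeq were used with the build GRCm38, versions not given in the sources used here. Listed genes all had 0.500 FPKM or more in some library, so lower ones are not seen. Low values could not be turned back into whole reads (at best 0.226 to 0.265 of them came out whole, within a tolerance of 0.1), so depth is unknown.

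A gene was tested if its mean over the libraries of a fit was 1 FPKM or more. Tests were run on log2(FPKM + 1), where changes of low genes are understated, with limma 3.58.1 in R 4.3.3 (eBayes with trend, two-sided, Benjamini-Hochberg over all genes tested, threshold 0.05). Fits against H3.3WT held 4 libraries, and the fit between the edited lines held all 6. For 2 against 2 libraries the smallest p of an exact two-sided permutation test is 0.333. The procedure was tested on simulated data. Replicate numbers follow the order of records or columns and pair no libraries.

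The 10 genes, the pathway and marker lists and the alternatives were chosen with earlier results of these data known. Named by rule were all 10 genes, Rbpj, Lfng, Hes5 and Cbfa2t2, in each comparison up to 3 highest and 3 lowest called pathway genes of at least 2 FPKM in the higher group, and the 3 genes nearest to Hes1 and to Notch1 with a mean of at least 5 FPKM. Other pathway and marker genes named were picked after their values were seen, to complete a count or a sum or to show a marker. Another gene of the rule, which the pathway counts include, is not reported here. H3f3a and H3f3b were also in the rule, and H3f3b did not pass in any comparison. Marker sums count a gene with no row in a table as 0 there. Coordinates, exons and transcript lengths are from GENCODE vM21 and promoter windows from RefSeq. Exon numbers are the highest in any transcript of a gene. Plots used matplotlib 3.10.9 (Python 3.11.15).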

Additional observations from a re-analysis of the deposited data

Results flagged for a closer look

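Hes1 and Dll3 passed a direct test of H3.3K27M against Cbfa2t2_KO on the values as deposited, and both calls were lost under some alternatives. For Hes1 the log2 change was 0.87 (limma, adjusted p = 0.0326), with 10.5 and 12.1 FPKM in H3.3K27M and 5.82 and 5.59 FPKM in Cbfa2t2_KO, higher in both H3.3K27M libraries. The Hes1 call was lost without either Cbfa2t2_KO library and without H3.3K27M replicate 2 (adjusted p = 0.0878, 0.197 and 0.116). For Dll3 it was -0.68 (limma, adjusted p = 0.0411), with 0.717 and 0.952 FPKM in H3.3K27M and 1.79 and 2.10 FPKM in Cbfa2t2_KO, lower in both H3.3K27M libraries. The Dll3 call was lost on leaving out any of the 6 libraries (adjusted p from 0.0573 to 0.251), with no filter on low values (0.0502), in a fit of 4 libraries (0.0594) and with trends removed (0.0835). Neither change reached a size of 1 on the log2(FPKM + 1) scale, and Dll3 was not tested at a mean of at least 5 FPKM.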

How the results depend on the processing

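With 2 libraries a line and FPKM alone, small changes of genes near 1 FPKM and changes of long transcripts in H3.3K27M are the least certain values. Alternatives were median-of-ratios scaling, quantile normalization, a pseudocount of 0.1, no filter, a mean of at least 5 FPKM, robust eBayes, eBayes with no trend, fits holding other sets of libraries, a log2 change of at least 1, leaving out each library and, chosen after seeing the data, removal of the trends on length, GC content and exon number. Where a fit left 1 library in a line, that library was assumed to vary like the rest. No paired analysis was possible because the columns carry no replicate numbers that pair libraries. The cause of each change below was not tested, except that the 5 FPKM filter and the leave-one-out fits hold fewer genes or libraries.

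In Cbfa2t2_KO against H3.3WT, all genes called numbered 1073 and other pathway genes 3 lower and 0 higher with a log2 change of at least 1. With a mean of at least 5 FPKM, 3 Notch genes were lower and 1 other pathway gene higher, and 5 other pathway genes were higher under median-of-ratios scaling and under quantile normalization. Over all genes, 2091 and 2025 were higher under these scalings, in that order, against 1528 on the values as deposited. Dll3 reversed to 0.06 and 0.073 under those scalings and Dll1 to -0.028 with trends removed, none of them past the test. Leaving out 1 library gave 1915 to 3038 genes called, with 1915 without Cbfa2t2_KO replicate 2 and 2236 without H3.3WT replicate 2, 4 to 5 Notch genes lower and 0 higher, and 3 to 7 other pathway genes lower and 0 to 1 higher. Uncalled genes changed sign there: Notch2 ran from -0.16 to 0.30, Notch3 from -0.094 to 0.36, Dll1 from -0.037 to 0.11 and Dll3 from -0.10 to 0.05.

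In H3.3K27M against H3.3WT, a log2 change of at least 1 gave 987 genes, 3 Notch genes lower, 3 other pathway genes lower and 0 higher. A mean of at least 5 FPKM gave 1 Notch gene lower and 0 other pathway genes higher, and quantile normalization 5 other pathway genes lower. Notch3 reversed to 0.093 with trends removed. Leaving out 1 library gave 1007 to 2790 genes, 2 to 5 Notch genes lower, 3 to 10 other pathway genes lower and 0 higher. The genes called were 1589 without H3.3K27M replicate 2, 1206 without H3.3WT replicate 1 and 1007 without H3.3WT replicate 2. Notch2 ran from -0.98 to 0.024, Notch3 from -0.74 to 0.22 and Hes1 from -0.41 to 0.024.

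In H3.3K27M against Cbfa2t2_KO, 0 Notch genes were lower with no filter, at 5 FPKM, in a fit of 4 libraries, at a log2 change of at least 1 and with trends removed, and 0 higher at a log2 change of at least 1 but 2 with trends removed. Other pathway genes higher numbered 0 at 5 FPKM, in 4 libraries and at a log2 change of at least 1, and lower ones 1 at that fold and 2 with trends removed. All genes called were 554 in 4 libraries, 232 at that fold and 1400 with trends removed. Leaving out 1 library gave 29 to 786 genes, with 29 without Cbfa2t2_KO replicate 2, 162 without Cbfa2t2_KO replicate 1 and 161 without H3.3K27M replicate 2, 0 to 1 Notch genes higher, 0 to 2 lower, 0 to 3 other pathway genes lower and 0 higher. Jag1 ran from -0.19 to 0.22, Notch3 from -0.87 to 0.084 and Nrarp from -0.18 to 0.04.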
